A study of Mus musculus with 8 samples.

Results

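The genes described here are 31 markers of dividing cells, neural progenitors and newborn neurons, measured in the hippocampus of adult Ts1Cje and wild-type mice. They were chosen as a list of genes, and their probes were found on the array by the RefSeq accession that names each probe. All 31 had at least 1 probe (45 in all), among 20660 genes named in that way. By role, 20 are cell cycle genes, 5 mark progenitors and 6 mark immature neurons. Total RNA of 4 Ts1Cje and 4 wild-type hippocampi was hybridised to 8 one-colour arrays, 1 per labelled replicate. All mice were 3 months old and C57BL6/J per the labels, and the series' description calls the controls disomic littermates. Ts1Cje mice, which model Down syndrome, carry an additional copy of a distal stretch of chromosome 16, from Sod1 (itself disrupted on the extra copy) towards the end, and lack the distal end of 1 chromosome 12. None of the 31 genes lies in either segment by gene order, although Mcm4 lies on chromosome 16 and Rrm2 and Sox11 on chromosome 12. The sex of the mice is not given in the labels, and no treatment is named.

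In the adult hippocampus, new neurons arise in the subgranular zone of the dentate gyrus. Radial glia-like stem cells that hold Sox2, Nes and the Notch target Hes5 give rise to dividing intermediate progenitors marked by Eomes, and these to neuroblasts marked by Neurod1, Dcx, Sox4, Sox11 and Igfbpl1. Division itself runs on cyclins and their kinase, on the MCM helicase that opens origins of replication, and on proteins of the mitotic spindle and kinetochore. Dividing cells are a small part of this tissue, and Sox2 and Hes5 are also made by astrocytes. In RNA of whole hippocampus, fewer cells of a type and less RNA per cell cannot be told apart.

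Many cell cycle genes are switched on together through E2F sites, used from G1 into S phase, or through the cell cycle genes homology region (CHR), used in G2 and mitosis. Promoter sequences from RefSeq (GRCm38.p6, 250 bases before to 50 after the start) were at hand for 24 of the 31 genes. The E2F letters TTTCCCGC, TTTCGCGC, TTTGCCGC or TTTGGCGC, read on both strands, were in the promoters of 5 of 15 cell cycle genes (Mcm3, Mcm5, Mcm6, Mcm7 and Cdk1) and of 0 of the other 9 genes, against 2.26% of all 32851 promoters. The CHR letters TTTGAA or TTCGAA were in 7 of 15 and 2 of 9, against 19.2% of all promoters. The sequences of 3 MCM genes and of Cdc20 and Mki67 are shown as examples, and the values of these genes are given below. Capitals mark the E2F letters in the MCM promoters and the CHR letters in the other 2, and a site on the opposite strand appears as its complement read backwards.
Mcm5, chr8:75109259-75109558, plus strand: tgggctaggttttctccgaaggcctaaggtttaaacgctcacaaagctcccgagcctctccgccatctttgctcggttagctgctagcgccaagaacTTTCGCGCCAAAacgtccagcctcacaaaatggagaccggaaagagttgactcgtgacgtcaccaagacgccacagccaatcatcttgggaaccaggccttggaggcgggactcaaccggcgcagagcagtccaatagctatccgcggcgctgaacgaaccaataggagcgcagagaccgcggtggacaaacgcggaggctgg
Mcm6, chr1:128359656-128359955, minus strand: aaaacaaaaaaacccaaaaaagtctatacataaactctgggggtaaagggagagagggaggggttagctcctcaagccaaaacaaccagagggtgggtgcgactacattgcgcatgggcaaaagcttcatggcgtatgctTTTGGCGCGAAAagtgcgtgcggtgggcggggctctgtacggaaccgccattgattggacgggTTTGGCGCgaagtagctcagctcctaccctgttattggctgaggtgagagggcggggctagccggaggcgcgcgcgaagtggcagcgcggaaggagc
Mcm7, chr5:138171834-138172133, minus strand: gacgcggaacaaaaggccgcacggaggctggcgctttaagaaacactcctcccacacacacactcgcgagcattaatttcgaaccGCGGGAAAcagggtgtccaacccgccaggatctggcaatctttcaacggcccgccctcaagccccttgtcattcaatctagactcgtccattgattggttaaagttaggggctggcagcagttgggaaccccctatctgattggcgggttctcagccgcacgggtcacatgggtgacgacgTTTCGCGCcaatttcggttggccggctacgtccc
Cdc20, chr4:118437294-118437593, minus strand: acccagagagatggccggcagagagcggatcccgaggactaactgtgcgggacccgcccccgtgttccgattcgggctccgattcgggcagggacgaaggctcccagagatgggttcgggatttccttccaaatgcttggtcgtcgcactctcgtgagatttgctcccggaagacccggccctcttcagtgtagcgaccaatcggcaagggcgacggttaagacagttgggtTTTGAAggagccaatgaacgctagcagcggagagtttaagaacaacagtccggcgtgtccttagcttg
Mki67, chr7:135716330-135716629, minus strand: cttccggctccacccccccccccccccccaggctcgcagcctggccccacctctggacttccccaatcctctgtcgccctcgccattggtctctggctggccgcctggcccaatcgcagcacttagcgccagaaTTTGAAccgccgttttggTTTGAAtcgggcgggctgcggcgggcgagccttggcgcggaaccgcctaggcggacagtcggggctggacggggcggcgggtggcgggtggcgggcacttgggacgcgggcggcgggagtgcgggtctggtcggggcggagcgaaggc
Mcm6 held 3 E2F matches, at 110, 106 and 47 bases before the start, of which the first pair overlap on opposite strands. Mcm5 held 2 overlapping matches on opposite strands and Mcm7 held 2 separate ones, 1 before and 1 after the start. Mki67 held 2 CHR matches, at 116 and 98 bases before the start, and Cdc20 held 1, at 18 bases. A match of letters is a description and not a bound site.

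Detection set which of these genes could be compared at all. A probe counted as detected on an array where Feature Extraction marked it well above background, and 25 of the 31 genes were detected on all 8 arrays. Top2a (topoisomerase II alpha), Aurkb (a mitotic kinase) and Bub1 (a spindle checkpoint kinase) were not well above background on any array. Cdk1, the kinase that drives entry into mitosis, was detected on 1 wild-type array by its brightest probe and on 1 Ts1Cje array by another. These 4 were not tested, and no fold is given for them. Ccnb1, the mitotic cyclin partner of Cdk1, was detected on 3 of 4 Ts1Cje and 4 of 4 wild-type arrays, and so was Eomes. Both entered the test through the wild-type group alone, a route that favours lower values in Ts1Cje.

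**Figure D1:**
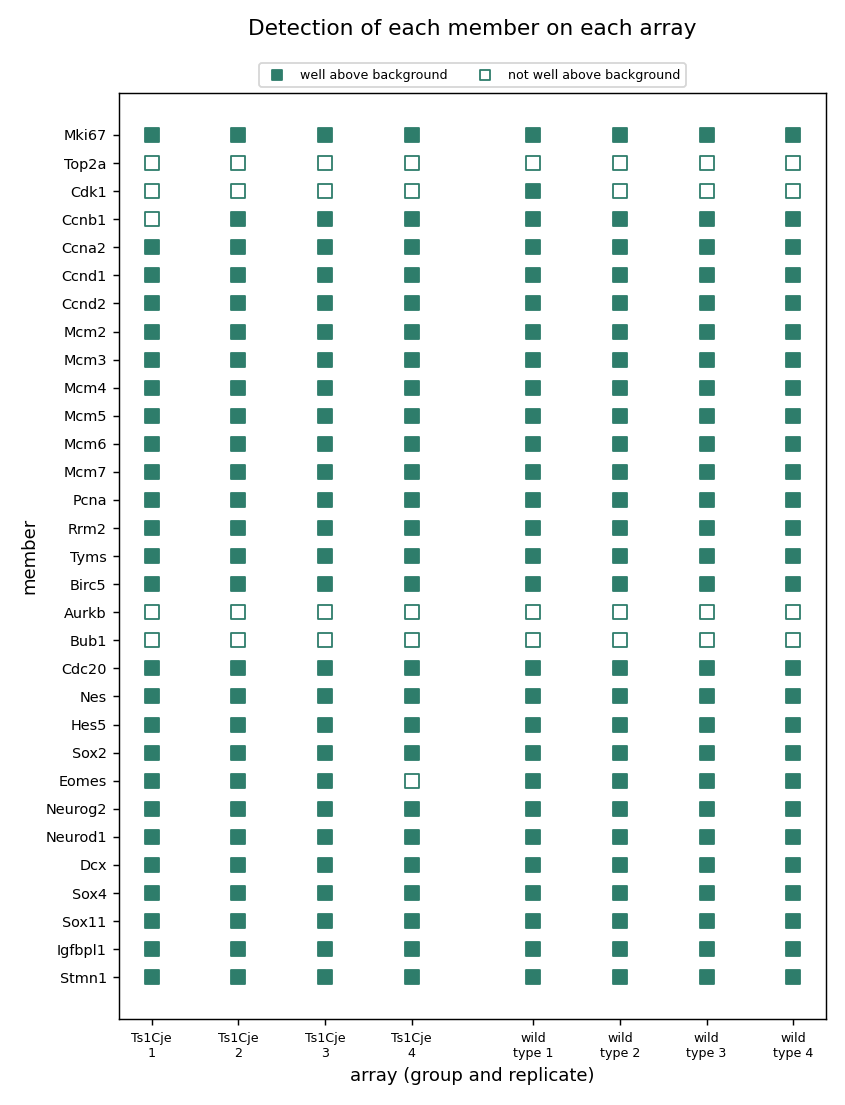
Detection of the 31 genes (rows, brightest probe) on the 4 Ts1Cje arrays (left) and 4 wild-type arrays (right). Filled squares are arrays on which the probe was well above background, and 25 rows are filled throughout, while Top2a, Aurkb and Bub1 are empty.

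No gene of the 3 roles passed the test between genotypes. Of the 27 genes tested, 0 passed in either direction (limma, p adjusted by Benjamini-Hochberg over 24016 features, threshold 0.05), where 0.196% of all features passed, 0.175% higher and 0.0208% lower. The lowest adjusted p among the 27 was 0.51. At an unadjusted p under 0.05, 3 of the 27 were lower (Birc5, Mcm6 and Mcm7) and 0 were higher, against 4.58% and 4.15% of all features. In 1 gene, Mcm6, all 4 Ts1Cje arrays lay below all 4 wild-type arrays, and such a gap was found for 3.7% of all features with Ts1Cje lower and for 2.42% with Ts1Cje higher. Of the 27 genes, 21 had a log2 fold change below 0, as did 52.7% of all features. Over the 25 genes detected on all arrays, 19 had a log2 fold change below 0 and the median was -0.11, whereas 53.3% of all features detected on all arrays were below 0, with a median of -0.01. This is a description with no test, since the genes were chosen with earlier results known.

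The precision differed between genes. Levels are log2 signals after subtraction of each array's own 75th percentile, and levels of different probes are not compared. The 95% interval of the fold change lay within 1.5-fold in either direction for 22 of the 27 genes and within 2-fold for 25. The 2 whose intervals reached past 2-fold were Mki67 and Ccnb1, and Hes5, Eomes and Igfbpl1 reached past 1.5-fold.

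**Figure D2:**
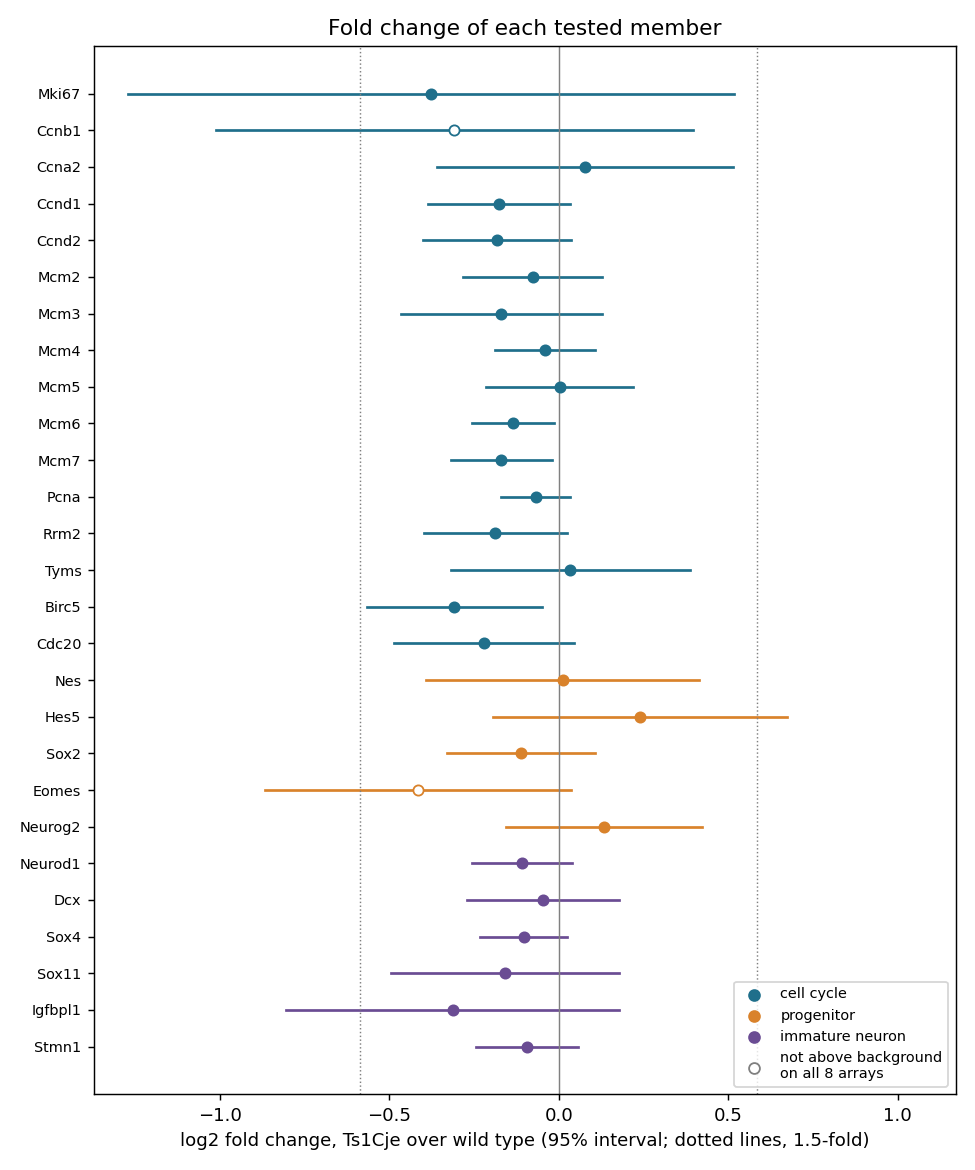
Log2 fold change of Ts1Cje over wild type (x axis, with 95% interval from limma) of the 27 tested genes (rows), coloured by role, with dotted lines at 1.5-fold. All intervals hold 0 except those of Mcm6, Mcm7 and Birc5, and the widest are those of Mki67 and Ccnb1.

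Mki67, Ccnb1, Birc5, Cdc20 and Ccna2, which mark proliferation and mitosis, all had their lowest value in Ts1Cje replicate 1. Mki67, which encodes the Ki-67 antigen of dividing cells, stood at -3.97, -2.36, -1.99 and -2.41 in Ts1Cje replicates 1 to 4, against -2.42, -2.11, -2.52 and -2.17 in wild-type replicates 1 to 4. Ts1Cje replicate 1 lay far below the other 7 arrays, and the remaining 3 Ts1Cje arrays spread over the wild-type range and above it. The log2 fold change was -0.38 (SE 0.39, limma adjusted p = 0.79), or 0.05 without Ts1Cje replicate 1. The second probe of Mki67 gave the same picture, with -4.36 in that array, -3.29 to -2.52 in the other Ts1Cje arrays and -3.05 to -2.77 in wild type. Ccnb1 stood at -5.21, -4.07, -3.57 and -4.37 in Ts1Cje, against -3.97, -3.86, -3.93 and -4.23 in wild type. Its log2 fold change was -0.31 (SE 0.31, adjusted p = 0.78), or -0.01 without Ts1Cje replicate 1, the array on which it was not well above background, so that its level there is only a bound.

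Birc5, which encodes survivin of the chromosomal passenger complex, had the smallest p among the 27 tested genes, each taken by its brightest kept probe. It stood at -1.72, -1.33, -1.17 and -1.40 in Ts1Cje, against -1.11, -1.10, -0.99 and -1.19 in wild type. The groups met only at Ts1Cje replicate 3 and wild-type replicate 4. Its log2 fold change was -0.31 (SE 0.11, 95% interval -0.57 to -0.05, adjusted p = 0.51), or 0.81-fold, and -0.20 without Ts1Cje replicate 1. Cdc20, an activator of the anaphase-promoting complex, stood at -2.61, -2.49, -2.06 and -2.32 in Ts1Cje, against -2.24, -2.07, -2.10 and -2.21 in wild type. For Cdc20 the log2 fold change was -0.22 (SE 0.12, adjusted p = 0.63), or -0.14 without that array, and the groups overlapped. Ccna2, the cyclin of S and G2 phase, averaged -2.90 ± 0.35 in Ts1Cje and -2.97 ± 0.26 in wild type (SD, n = 4 each), and had a log2 fold change of 0.08 (SE 0.19, adjusted p = 0.92).

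The 6 subunits of the MCM helicase had small differences. Mcm6 stood at 2.51, 2.45, 2.61 and 2.61 in Ts1Cje, against 2.68, 2.65, 2.72 and 2.66 in wild type, so that every Ts1Cje array was lower. Its log2 fold change was -0.14 (SE 0.05, 95% interval -0.26 to -0.01, adjusted p = 0.53). Mcm7 stood at 0.89, 0.80, 0.92 and 1.00 in Ts1Cje, against 0.96, 1.06, 1.09 and 1.18 in wild type, and the groups overlapped at Ts1Cje replicate 4 and wild-type replicate 1. Its log2 fold change was -0.17 (SE 0.06, adjusted p = 0.53). Mcm3 had nearly the same fold change, -0.17 (SE 0.13, adjusted p = 0.71), but in its case Ts1Cje replicate 1, at -1.24, lay apart from the other 3 Ts1Cje arrays, at -0.72 to -0.65, and without it the value was -0.03. Mcm2, Mcm4 and Mcm5 stood at -0.08, -0.04 and 0.00 on the log2 fold change scale, with SEs of 0.06 to 0.09. Mcm5, whose promoter holds E2F letters like those of Mcm6 and Mcm7, averaged -1.03 ± 0.14 in Ts1Cje and -1.04 ± 0.14 in wild type (SD, n = 4 each).

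Other genes of DNA synthesis had log2 fold changes from -0.19 to 0.03. Pcna, the sliding clamp of DNA polymerase, averaged 3.26 ± 0.03 in Ts1Cje and 3.33 ± 0.05 in wild type, a log2 fold change of -0.07 (SE 0.04, adjusted p = 0.67). Rrm2, the regulated subunit of ribonucleotide reductase, stood at -2.22, -1.97, -1.77 and -2.00 in Ts1Cje, against -1.79, -1.84, -1.86 and -1.73 in wild type. The log2 fold change of Rrm2 was -0.19 (SE 0.09, adjusted p = 0.61), and 3 of the 4 Ts1Cje arrays lay below all wild-type arrays. Tyms, thymidylate synthase, had a log2 fold change of 0.03 (SE 0.15, adjusted p = 0.96).

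The D-type cyclins, which act in G1, were at similar differences. Ccnd2, which is needed for adult hippocampal neurogenesis in mice, stood at 3.08, 2.93, 2.88 and 2.93 in Ts1Cje, against 3.22, 3.35, 3.03 and 2.94 in wild type. Ccnd1 stood at 2.30, 2.24, 1.96 and 2.29 in Ts1Cje, against 2.47, 2.46, 2.27 and 2.30 in wild type. Both sets overlapped, and the log2 fold changes were both -0.18 (SE 0.09 for both, with an adjusted p of 0.63 for Ccnd2 and 0.62 for Ccnd1). Unlike Mki67, Ccnb1, Birc5, Cdc20 and Ccna2, neither was lowest in Ts1Cje replicate 1.

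**Figure D3:**
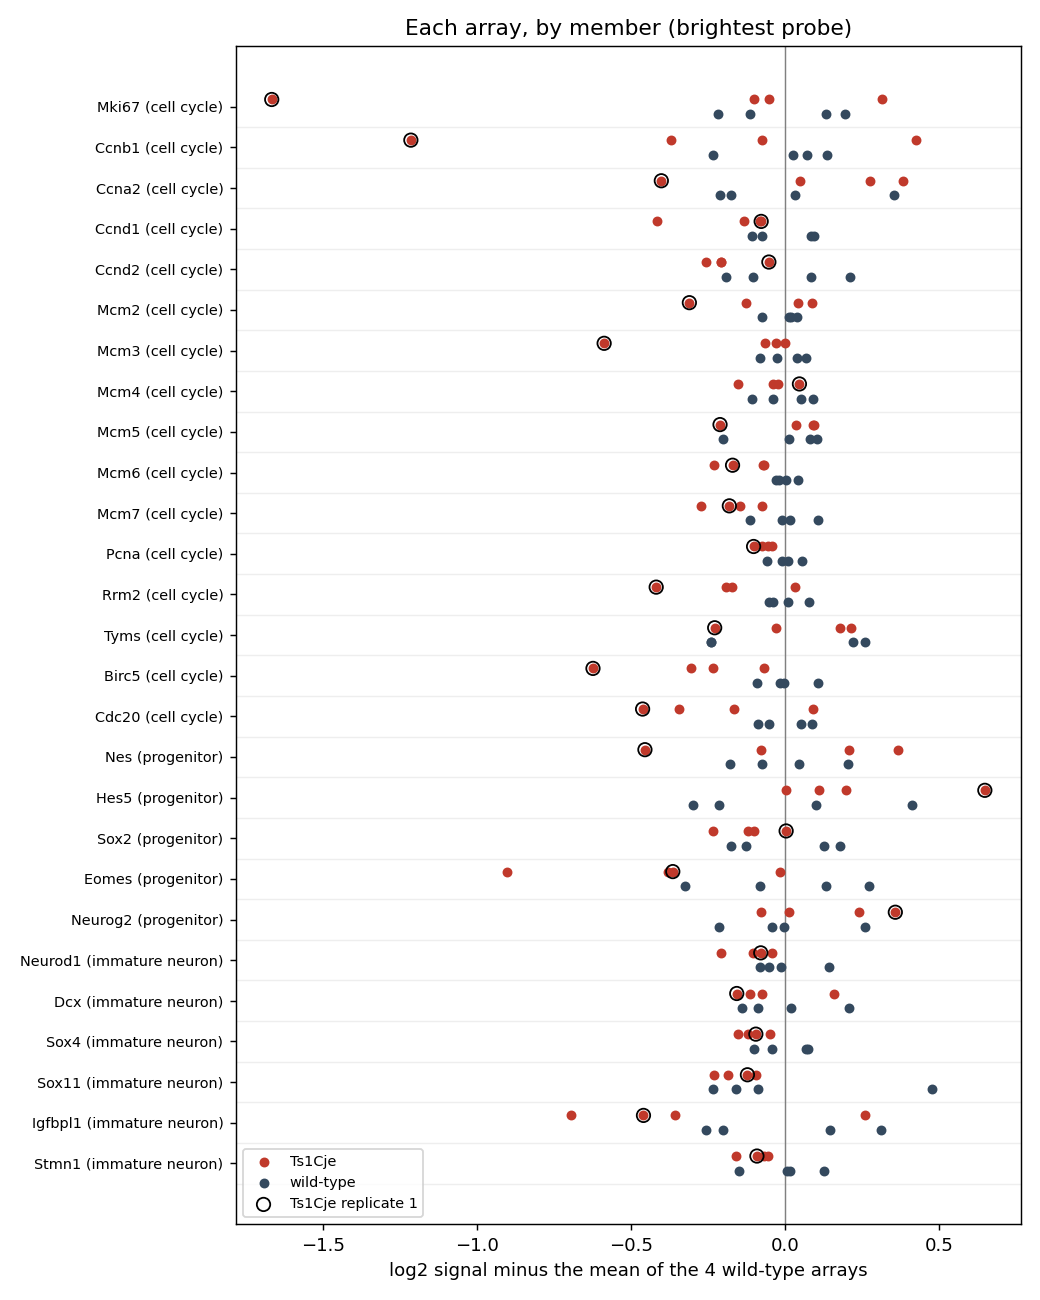
Log2 signal of each array minus the wild-type mean (x axis) for the 27 tested genes (rows), with Ts1Cje in red above wild type in blue-grey and Ts1Cje replicate 1 circled. That array lies far to the left for Mki67 and Ccnb1 and at the right end for Hes5 and Neurog2.

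Markers of stem cells and progenitors did not shift one way. Hes5, a Notch effector of radial glia and astrocytes, stood at 3.51, 2.86, 3.06 and 2.97 in Ts1Cje, against 2.56, 2.96, 3.28 and 2.65 in wild type. The highest array was Ts1Cje replicate 1, the groups overlapped, and the log2 fold change was 0.24 (SE 0.19, adjusted p = 0.72), or 0.10 without that array. Nes, the intermediate filament nestin, spread from -0.58 to 0.24 in Ts1Cje and from -0.30 to 0.08 in wild type, and its log2 fold change was 0.01 (SE 0.17, adjusted p = 0.99). Sox2, a transcription factor of neural stem cells, had a log2 fold change of -0.11 (SE 0.09, adjusted p = 0.74).

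Eomes, the marker of intermediate progenitors, had the most negative fold change of the 27 genes. It entered the test through the wild-type group alone, a route that favours lower values in Ts1Cje. It stood at -4.60, -4.61, -4.25 and -5.14 in Ts1Cje, against -3.96, -4.32, -4.56 and -4.10 in wild type, and 3 Ts1Cje arrays lay below every wild-type array. The lowest, Ts1Cje replicate 4, was the array on which it was not well above background, so that its level there is only a bound. Its log2 fold change was -0.41 (SE 0.20, adjusted p = 0.60), and ranged from -0.55 to -0.25 when single arrays were left out. Its other probe was detected on 1 wild-type array alone. Neurog2, a proneural factor that precedes Eomes, had a log2 fold change on the other side of 0, at 0.13 (SE 0.13, adjusted p = 0.77), with -3.62, -3.74, -3.97 and -4.06 in Ts1Cje, against -4.19, -3.98, -4.02 and -3.72 in wild type.

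The 6 immature neuron genes all had fold changes below 0 on their brightest probe, and none passed. Igfbpl1, a marker of neuroblasts, stood at -2.76, -2.66, -2.04 and -2.99 in Ts1Cje, against -2.56, -1.99, -2.50 and -2.16 in wild type. Ts1Cje replicate 3 lay among the highest arrays and the other 3 Ts1Cje arrays were the 3 lowest, and the log2 fold change was -0.31 (SE 0.21, adjusted p = 0.68). Dcx, a microtubule protein of migrating neuroblasts and the usual marker of adult neurogenesis, stood at -0.96, -0.88, -0.64 and -0.92 in Ts1Cje, against -0.78, -0.94, -0.60 and -0.89 in wild type. The groups lay on top of each other, with a log2 fold change of -0.05 (SE 0.10, 95% interval -0.27 to 0.18, adjusted p = 0.90). Stmn1, a microtubule-destabilising protein also found in mature neurons, had a log2 fold change of -0.09 (SE 0.06, adjusted p = 0.69). Neurod1, a differentiation factor of granule neurons, had a log2 fold change of -0.11 (SE 0.06, adjusted p = 0.66) on its brightest probe and of 0.05 on the other.

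For the related factors Sox4 and Sox11, which drive neuronal genes in neuroblasts, the dimmer probes separated the genotypes and the brighter ones did not. The dimmer Sox4 probe stood at -2.65, -2.57, -2.73 and -2.98 in Ts1Cje, against -2.14, -2.39, -2.03 and -2.36 in wild type. Every Ts1Cje array lay below every wild-type array, and the log2 fold change was -0.50 (SE 0.11, or 0.71-fold, limma adjusted p = 0.25 over 32587 probes). The brightest Sox4 probe stood at -0.39, -0.41, -0.45 and -0.34 in Ts1Cje, against -0.34, -0.22, -0.23 and -0.40 in wild type, with a log2 fold change of -0.10 (SE 0.06, adjusted p = 0.64 over the genes). The dimmer Sox11 probe stood at -0.72, -0.89, -0.82 and -0.74 in Ts1Cje, against -0.64, -0.51, -0.35 and -0.64 in wild type, again without overlap (log2 fold change -0.26, SE 0.08, adjusted p = 0.43). The brightest Sox11 probe had a log2 fold change of -0.16 (SE 0.15, adjusted p = 0.76) with overlap, and 1 array, wild-type replicate 2 at 0.31, lay above the rest. Without that array its value was 0.00. Among all single probes, 3.59% had no overlap with Ts1Cje lower and 0.187% passed. These 2 probes were singled out after their values were seen, and where each probe lies in its transcript is not given in the columns used here.

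**Figure D4:**
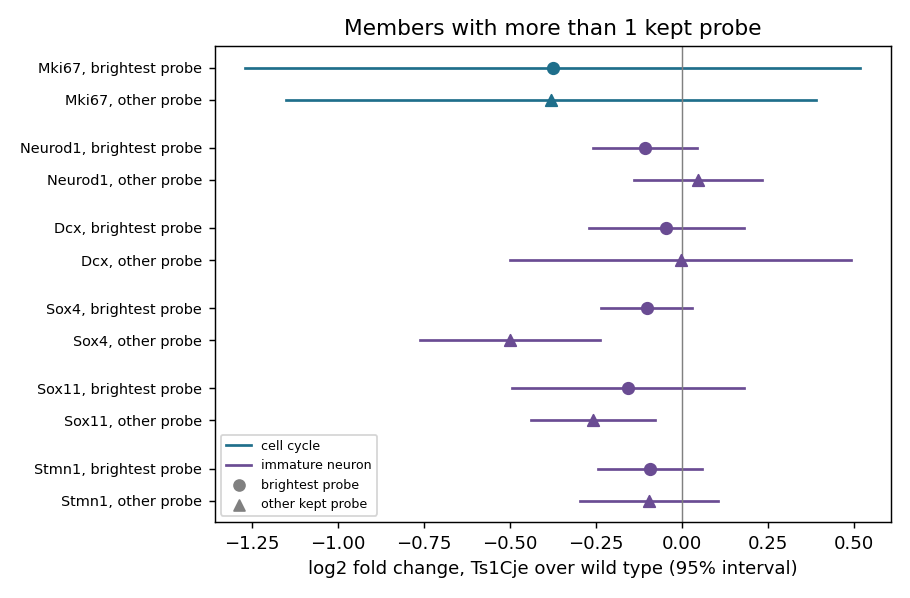
Log2 fold change of Ts1Cje over wild type (x axis, 95% interval) for each detected probe of the 6 genes with more than 1, circles for the brightest probe and triangles for the other. The probes of Mki67 and Stmn1 lie together, whereas the 2 Sox4 probes lie at -0.10 and -0.50.

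Per array, the mean over the genes of a role that were detected on all 8 arrays gives a score. The cell cycle score, over 15 of 20 genes, was -0.59, -0.30, -0.24 and -0.31 in Ts1Cje replicates 1 to 4, against -0.24, -0.15, -0.26 and -0.26 in wild type. Ts1Cje replicate 1 was lowest and the other 7 arrays lay within a narrow range. In that range, Ts1Cje replicates 2 and 4 lay below every wild-type array and Ts1Cje replicate 3 was level with wild type. The summed signal of the same 15 genes weights probes by their signal, so that it rests mostly on Pcna, Ccnd2, Mcm6 and Ccnd1. It ordered the arrays otherwise. It was 34.9, 34.5, 34.1 and 35.2 times the 75th percentile in Ts1Cje, against 38.7, 39.4, 37.6 and 36.0 in wild type, without overlap and lowest in Ts1Cje replicate 3. The difference of the mean scores was -0.13, or -0.06 without Ts1Cje replicate 1. That difference was -0.25 in the slide row that holds replicates 1 and 2 of both groups, and -0.01 in the row that holds replicates 3 and 4. Of the 15 genes, 9 had their lowest value of the 8 arrays in Ts1Cje replicate 1. The share of all features lowest in that array was not determined, so the count cannot be called particular to these genes.

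The immature neuron score, over all 6 genes, was 0.28, 0.29, 0.42 and 0.25 in Ts1Cje, against 0.35, 0.57, 0.46 and 0.41 in wild type. Only Ts1Cje replicate 3 reached into the wild-type range. The difference was -0.14, with -0.17 in the first slide row and -0.10 in the other, and -0.13 without Ts1Cje replicate 1. The summed signal of these 6 genes, which rests mostly on Stmn1, overlapped, at 102 to 109 in Ts1Cje and 103 to 124 in wild type. The progenitor score, over Nes, Hes5, Sox2 and Neurog2, was -0.15, -0.21, -0.32 and -0.22 in Ts1Cje, against -0.41, -0.17, -0.28 and -0.32 in wild type. The groups overlapped throughout, the difference was 0.07, and with Eomes added it was -0.03. The summed signal of the progenitor genes without Eomes also overlapped, at 9.38 to 13.2 in Ts1Cje and 7.98 to 11.5 in wild type. No p is given for these scores, since the genes were chosen with earlier results known.

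**Figure D5:**
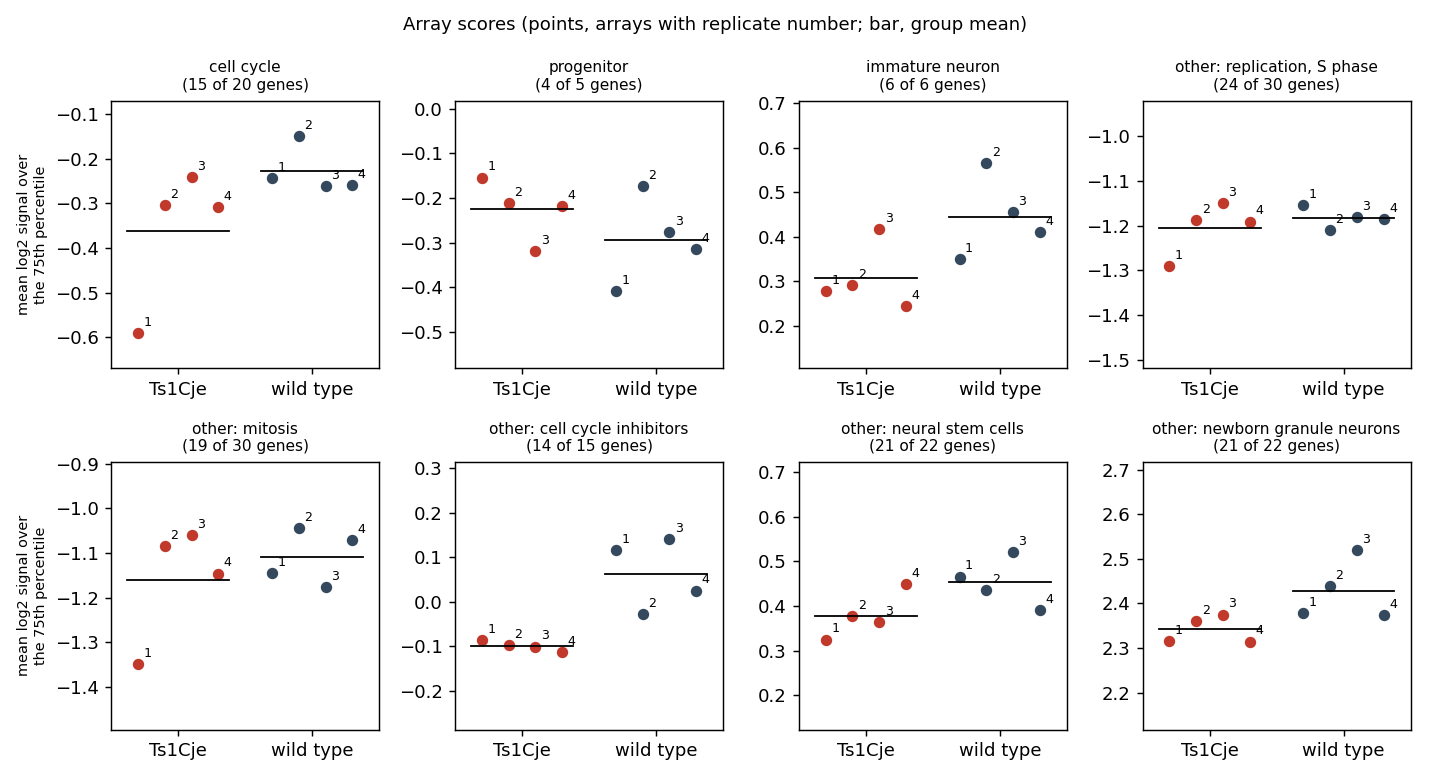
Array scores (y axis, mean log2 signal relative to the 75th percentile, every panel spanning the same height) of the 3 roles and of 5 further lists, with Ts1Cje left of wild type, points numbered by replicate and bars at the group means. Ts1Cje replicate 1 is the lowest point for the cell cycle, replication, mitosis and neural stem cell lists. Only the cell cycle inhibitors show no overlap between groups.

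Of further genes of the same pathways, none of them among the 31, none passed in either direction. Their log2 fold changes ran from -0.50 to 0.41. Of all features, 0.196% passed and 52.7% had a log2 fold change below 0. Of 30 other replication and S phase genes, 24 were tested, 16 were below 0, and the median log2 fold change was -0.01. Cdk4, the G1 kinase bound by D-type cyclins, stood at 2.77, 2.77, 2.82 and 2.86 in Ts1Cje, against 2.89, 2.94, 2.99 and 2.93 in wild type, a log2 fold change of -0.13 (SE 0.05, adjusted p = 0.47). Of 30 other mitosis genes, 22 were tested, 14 were below 0 and the median was -0.05. Nusap1, a spindle protein, stood at -5.39, -5.02, -4.71 and -5.01 in Ts1Cje, against -4.33, -4.69, -4.68 and -4.42 in wild type, a log2 fold change of -0.50 (SE 0.15, adjusted p = 0.40) without overlap. Cks2, a subunit that binds cyclin-dependent kinases, had a log2 fold change of 0.41 (SE 0.20, adjusted p = 0.61).

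The inhibitors of the cell cycle were the further list whose score did not overlap. Of 15, 14 were tested and 12 were below 0, against 52.7% of all features, with a median of -0.15. At an unadjusted p under 0.05 (limma), 5 were lower and 0 higher, against 4.58% and 4.15% of all features, and none passed. These genes were listed with earlier results known, so the counts are a description. Their score was -0.09, -0.10, -0.10 and -0.11 in Ts1Cje, against 0.12, -0.03, 0.14 and 0.03 in wild type, a difference of -0.16. That difference ranged from -0.21 to -0.13 over 20 alternative settings. Among these, both blocks and the filter for detection on every array could not change it. Cdkn2b, a kinase inhibitor of G1, stood at -2.92, -2.42, -2.54 and -2.46 in Ts1Cje, against -2.12, -2.13, -2.24 and -2.25 in wild type (log2 fold change -0.40, SE 0.11, adjusted p = 0.34). Btg1, an antiproliferative gene, stood at 3.10, 2.98, 3.05 and 3.11 in Ts1Cje, against 3.25, 3.25, 3.46 and 3.24 in wild type (log2 fold change -0.24, SE 0.07, adjusted p = 0.34).

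Of 22 further genes of neural stem cells, all were tested and 14 were below 0, against 52.7% of all features, and the median was -0.06. The 2 with the smallest p were Pax6, a transcription factor of radial glia, with a log2 fold change of -0.37 (SE 0.14, adjusted p = 0.52), and Lpar1, a lysophosphatidic acid receptor, with -0.30 (SE 0.12, adjusted p = 0.55). Of 22 further genes of newborn granule neurons, 21 were tested and 18 were below 0, against the same 52.7%, and the median was -0.07. Cd24a, a surface protein of neuroblasts, stood at -0.46, -0.72, -0.21 and -0.56 in Ts1Cje, against -0.15, -0.06, 0.05 and -0.21 in wild type, so that the groups did not overlap, although the nearest arrays of each were level at 2 decimals, with a log2 fold change of -0.40 (SE 0.11, adjusted p = 0.36). Rnd2, which acts in migrating neurons, had a log2 fold change of -0.16 (SE 0.06, adjusted p = 0.49).

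By contrast, all 5 triplicated genes with roles in replication, chromatin and cell cycle exit that were listed were higher past the threshold, at 1.33-fold to 1.59-fold. Of all features, 0.175% passed higher. These 5 genes were listed with earlier results known, so their count is not a rate for the segment. They are Donson, a replication fork protein, Chaf1b, a histone chaperone of S phase, Dyrk1a, a kinase that promotes cell cycle exit, Hmgn1 and Brwd1. Their score was 1.66 to 1.70 in Ts1Cje and 1.12 to 1.18 in wild type. These genes have 3 copies in Ts1Cje, and their log2 fold changes were between 0.33 and 0.72 under all settings run with 1 value per gene. The calls themselves were less stable, since 0 of the 5 passed with replicate number as a block (adjusted p = 0.087 to 0.13, limma). Within either slide row 0 passed. With no filter 1 passed, with the array median as centre 3, and with probes averaged or a trended and robust prior 4. All 5 passed with normexp, quantile normalization, the filter on all 8 arrays, array weights or slide row as a block. Leaving out 1 array left 5 without wild-type replicate 3, 3 without wild-type replicate 1, 2 without wild-type replicate 2 or Ts1Cje replicate 1 or 3, 1 without wild-type replicate 4 or Ts1Cje replicate 2, and 0 without Ts1Cje replicate 4.

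Markers of other cells were set beside these values, and their part in the results was not tested. On all arrays, 10 of 10 dentate granule cell markers and 9 of 10 CA1 and CA3 markers were detected. Detection alone cannot check the label hippocampus, since ependymal, endothelial and choroid plexus markers were detected about as often. The dentate granule cell score was 0.75 to 0.90 in Ts1Cje and 0.90 to 0.98 in wild type, without overlap and lowest in Ts1Cje replicate 1, and the summed signal of its markers was 28.7 to 34.5 times the 75th percentile in Ts1Cje and 33.5 to 37.6 times in wild type. Ependymal markers, all 7 detected, summed to 5.86 to 7.82 in Ts1Cje and 7.07 to 8.93 in wild type. Their score was -0.69 to -0.35 in Ts1Cje and -0.44 to -0.13 in wild type, a difference of -0.31. At an unadjusted p under 0.05 (limma), 4 of the 7 were lower and 0 higher, against 4.58% and 4.15% of all features, and none passed. Oligodendrocyte precursor markers, 8 of 8 detected and from a cell type that also divides, summed to 14.0 to 19.2 in Ts1Cje and 16.9 to 19.4 in wild type. The 2 of 5 blood markers that were detected on all arrays, S100a9 of neutrophils and Hba-a1 of red cells, summed to 0.95 to 5.78 in Ts1Cje and 0.63 to 1.45 in wild type. In Ts1Cje replicate 1, the array with the lowest cell cycle score, they went opposite ways, with S100a9 at 2.43, its highest of the 8 arrays, and Hba-a1 at -1.39, its lowest. Astrocyte markers (8 of 8 detected) summed to 405 to 528 in Ts1Cje and 432 to 487 in wild type. Microglia markers (8 of 8) summed to 65.5 to 74.5 in Ts1Cje and 66.0 to 70.1 in wild type. Endothelial markers (8 of 8) summed to 47.9 to 70.0 in Ts1Cje and 44.0 to 49.9 in wild type, and choroid plexus markers (7 of 8) to 3.20 to 4.57 in Ts1Cje and 2.86 to 5.94 in wild type. The share of probes well above background was 60.0% to 63.2% over the 8 arrays, with the highest in Ts1Cje replicate 1.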

How the data were processed

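RNA of 8 hippocampi was labelled with Cy3 from 0.1 µg each, per the labels' protocols. Each deposited file gives linear intensities of spots from Agilent Feature Extraction 10.10.1.1 on a design of build mm9, per the file headers: a processed signal, background-subtracted and on the scale of its own array, and spot and background medians. The arrays shared 1 slide and 1 scan, so neither could act as a batch. Each slide column held 1 genotype, and their effects cannot be told apart.

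Outlier-flagged spots and control spots were dropped. Saturation occurred on no spot. Log2 processed signals were averaged per probe, and each array's 75th percentile over 55681 probes was subtracted. A probe was kept if it was well above background throughout Ts1Cje, wild type or both. RefSeq accessions named 27235 probes through a GRCm38.p6 table, and a gene is its brightest kept probe. The test was limma (version 3.58.1, R 4.3.3), with lmFit and eBayes, no block and Benjamini-Hochberg adjustment over all features. P-values measure the spread between labelled replicates, taken as separate mice, and 4 arrays a group limit the precision. On simulated independent data of 24012 features the fit recovered 64% of 100 genes changed 1.5-fold and 88% of 100 changed 2-fold, with 10 false calls among 162. No change below 1.5-fold was simulated, so these rates do not carry over to smaller differences. Named were all 31 genes, the 2 smallest p of each further list and the triplicated genes past the threshold. One gene that this rule names is not reported here. Genes and lists were chosen with earlier results of these data known. Alternatives were normexp (offset 50, on median signals), the array median as centre, quantile normalization, other filters and probe rules, array weights, a trended and robust prior, replicate number and slide row as blocks, a threshold of 0.10, and each array left out. Python 3.11.15, pandas 2.3.3 and matplotlib 3.10.9 were used.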

Additional observations from a re-analysis of the deposited data

Results flagged for a closer look

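In 4 of 90 sets of 4 arrays, 1 array lay far from the other 3 of its group by its gap to the nearest array as a share of the group's range (Dixon's ratio). Chance alone gives about 1 in 20 such sets, or 4.5 here. Mcm3 stood at -1.24 in Ts1Cje replicate 1, against -0.72 to -0.65 in the other Ts1Cje arrays (ratio 0.890). Ccnd1 stood at 1.96 in Ts1Cje replicate 3, against 2.24 to 2.30 in the other Ts1Cje arrays (ratio 0.834). The cell cycle score was -0.15 in wild-type replicate 2, against -0.26 to -0.24 in the other wild-type arrays (ratio 0.840). The astrocyte marker score was 3.64 in Ts1Cje replicate 2, against 3.74 to 3.75 in the other Ts1Cje arrays (ratio 0.876).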

How the results depend on the processing

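None of the 31 genes passed under any setting run. Of 538 values of single genes under alternatives, 507 kept their direction and 31 changed sign, in 10 of 27 genes. The 507 overstates the stability, because some alternatives could not change a log2 fold change. Both blocks and the trended and robust prior alter only the test, and they returned the main log2 fold changes. The filter for detection on every array kept the same probe for the genes that it retained. The lowest adjusted p was 0.22, for Sox4 with probes averaged. Within the slide row of replicates 3 and 4, log2 fold changes were 0.15 for Mki67, 0.11 for Ccnb1, 0.010 for Mcm2 and -0.14 for Neurog2, and within the row of replicates 1 and 2 they were -0.13 for Ccna2, -0.25 for Tyms and -0.19 for Nes. With the array median as centre, which moved the median of all features to -0.06, Mcm5 was at -0.048, Tyms at -0.016 and Nes at -0.039. Quantile normalization gave -0.0036 for Mcm5 and -0.0043 for Tyms, normexp -0.026 for Tyms, and array weights 0.0020 for Dcx. Leaving out single arrays gave -0.61 to 0.053 for Mki67, -0.025 to 0.24 for Ccna2, -0.13 to 0.00081 for Mcm2, -0.064 to 0.074 for Mcm5, -0.046 to 0.12 for Tyms, -0.11 to 0.17 for Nes, -0.11 to 0.023 for Dcx and -0.23 to 0.0016 for Sox11. The cell cycle score differed by -0.25 in the first row and -0.014 in the other (-0.17 to -0.06 leaving out arrays), and the progenitor score by -0.028 with every kept gene or with no filter. The causes were not tested.

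Over all features, 47 passed (42 higher), against 60 with quantile normalization (47 higher), 25 with the median as centre, 23 with no filter, 86 with array weights, 71 with a trended and robust prior, 98 at a threshold of 0.10, 0 and 4 within the first and second slide rows (1037 and 1607 at an unadjusted p under 0.05, limma), and 4 to 44 leaving out arrays, the fewest without Ts1Cje replicate 4. The series' description speaks of 4 pairs but does not tie them to replicate numbers. Deviations of same-numbered arrays correlated at 0.235, 0.192, 0.106 and 0.0499, and the array of replicate 3 correlated best with number 4. With replicate number as a block, 1 feature and 0 of the 31 genes passed. The 4 genes near background could not be compared at this signal.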
